A study of Mus musculus with 7 samples.

Results

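The genes followed here in fasted WT and SHIVA livers are Wnt targets and pericentral genes, with Ctnnb1 as the transducer of the signal. They are Ctnnb1, Axin2, Nkd1, Rnf43, Lgr5, Tbx3, Glul, Oat, Slc1a2 and Lect2. They were taken by name from the arrays and account for 10 of 36492 gene names and for 14 of 55681 probes. SHIVA mice carry a point mutation in the HMG box of Sox17 that was induced with the mutagen ENU, and according to the study's methods all viable mutants were heterozygous. All mice were female C57BL/6, aged 8 to 12 weeks and fasted for 24 h. RNA of whole liver from 3 WT and 4 SHIVA mice was hybridised to single-colour Agilent arrays, 1 mouse per array. The mutation is carried by every cell of the body and the RNA is of whole liver, so a difference cannot be assigned to Sox17 in hepatocytes rather than in another cell. The SHIVA mice stand for 1 mutant line.

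In canonical Wnt signalling a ligand binds a Frizzled receptor with an LRP co-receptor, β-catenin escapes degradation, and together with TCF and LEF factors it switches on its targets. In the liver lobule, endothelial cells of the central vein secrete Wnt ligands and R-spondin, and the hepatocytes next to them hold the pericentral programme with glutamine synthesis. Hepatocytes around the portal tract hold the opposite programme of urea synthesis and gluconeogenesis. Sox17 is an HMG-box factor that is known to bind β-catenin and to restrain transcription driven by TCF, which is why these genes bear on the mutant.

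No gene of the 10 passed the test across all genes. Of the 10, 9 were tested and 0 had an adjusted p under 0.05 by limma, against 0.375% of the 20002 genes tested (75 genes). On average 6 were lower in SHIVA, as were 51.2% of all genes, and 3 were higher. Glul alone had an unadjusted p under 0.05, a level that 13.3% of all genes reached. Glul encodes glutamine synthetase, the enzyme that marks the hepatocytes next to the central vein, and its values were lower in each SHIVA liver than in any WT liver. Ctnnb1, which encodes β-catenin itself, was the only one of the 9 whose values were higher in each SHIVA liver than in any WT liver. These 2 of 9 genes without overlap, 1 in each direction, compare with 12.2% of all genes (6.14% higher and 6.02% lower). The median log2 fold change of the 9 genes, SHIVA over WT, was -0.26, against -0.0074 over all genes tested.

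The livers of WT mice differed from each other more than those of SHIVA mice for most of these genes. WT replicate 1 had the lowest log2 signal of the 3 WT livers in 7 of the 9 genes tested, while it was lowest for 34.9% of all genes. It was the lowest of all livers with a value in 4 of them, of which Oat had no value in SHIVA replicate 4. The SD among WT livers exceeded that among SHIVA livers in 7 of the 9 genes, and in 55.3% of all genes. The differences of these genes are therefore given with and without this liver. Without it 8 of the 9 genes were lower in SHIVA, 5 did not overlap between the genotypes (21.3% of all genes), 4 of these lower in SHIVA (10.2%), and 0 were called. The median log2 fold change was then -0.42. This liver was singled out on these same genes, so leaving it out raises the WT mean of those 7 by construction. All counts, intervals and p-values of these genes without it are therefore a description only. With any other liver left out, 2 to 4 of the 9 genes did not overlap, and 0 were called. Over all genes the share without overlap was 12.2% with all 7 livers and 21.3% without WT replicate 1. That share was not counted without the other livers, so 2 to 4 of 9 has no background to be read against.

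The mRNA of the mutated gene was measured too, although the array does not read the point mutation. Sox17 had a log2 signal of 4.52, 3.41 and 3.92 in WT replicates 1 to 3 and of 4.46 to 4.76 in the SHIVA livers, a log2 difference of 0.69 ± 0.25 (SE) with an adjusted p of 0.279 by limma. It was near background, with 2 of 3 WT arrays well above it, and the difference was 0.24 in the authors' table, 0.094 with normexp background correction and 0.42 without WT replicate 2. The 8 hepatocyte markers, such as Alb and Apob, were well above background in all livers, with a mean log2 signal of 16.05 to 16.28 in WT and 16.02 to 16.25 in SHIVA. All arrays lay on 1 slide and were read in 1 scan, and the 2 rows of the slide each held 1 genotype, so slide row and genotype cannot be told apart. In whole liver, fewer cells of a type and less RNA per cell cannot be told apart either.

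**Figure D1:**
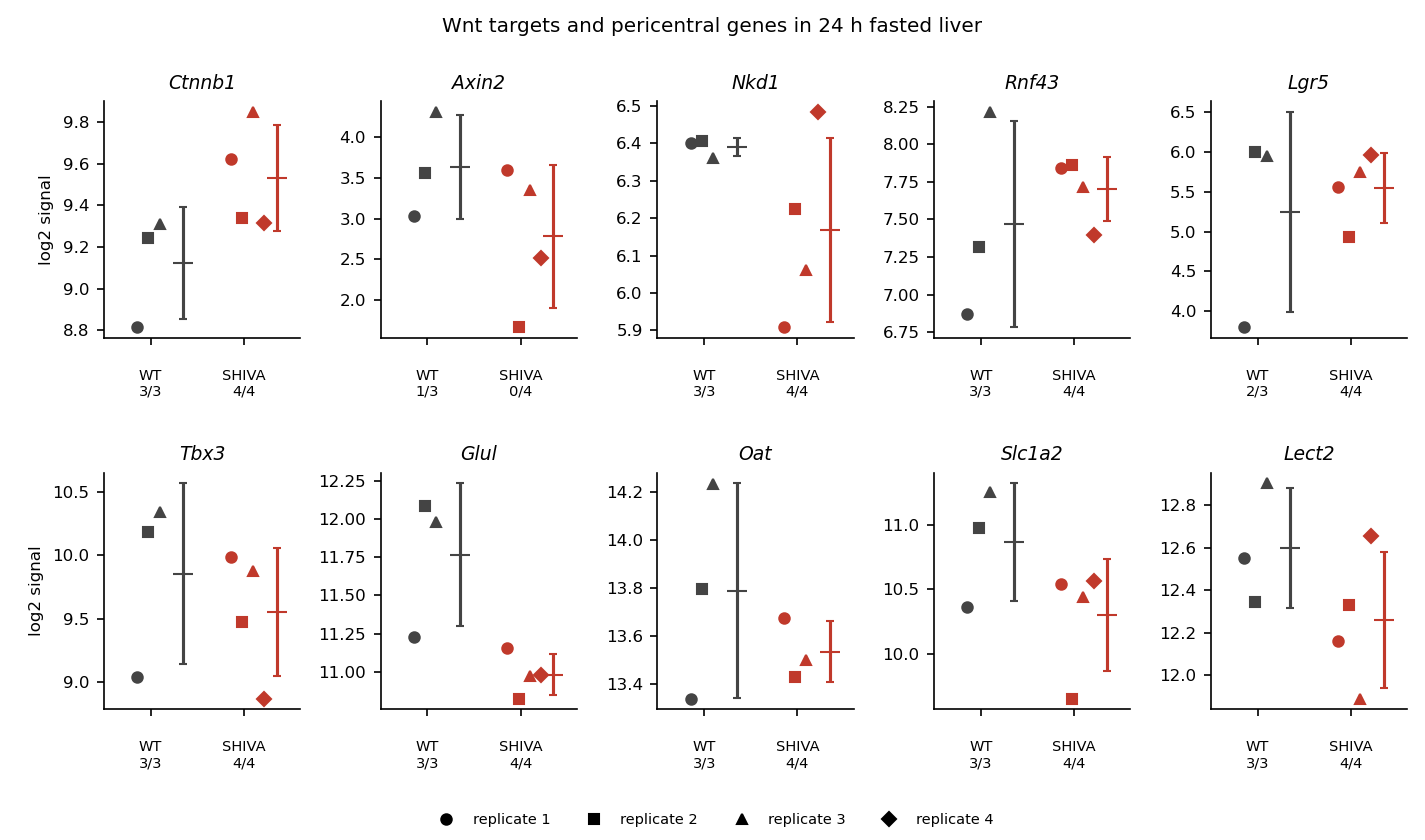
Log2 signal (y axis, quantile normalised, with its own range in each panel) of the 10 genes in 3 WT (grey) and 4 SHIVA (red) livers. Symbols are single livers, the bar beside them is the mean ± SD, and the numbers under the names count the arrays well above background. Glul separates downwards and Ctnnb1 upwards, and the circle of WT replicate 1 lies at the bottom of the WT group in most panels.

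β-catenin is both the adhesion partner of cadherins and the transducer of the Wnt signal. The arrays measure its mRNA and not the protein that escapes degradation. The probe of Ctnnb1 lies at chr9:120869274-120869333 of mm9 and is spotted in 2 places on each array. Log2 signals were 8.81, 9.24 and 9.31 in the WT livers and 9.63, 9.34, 9.85 and 9.32 in the SHIVA livers. SHIVA replicate 4 lay just above the highest WT liver, so the separation was narrow. The log2 difference was 0.41 ± 0.20 (SE), with a 95% interval of -0.036 to 0.85 and an adjusted p of 0.415 by limma. Leaving out 1 liver gave 0.25 (without WT replicate 1) to 0.50 (without WT replicate 3), and the groups did not overlap without WT replicate 1 either. With the mean spot signal in place of the processed signal, with normexp background correction and in the authors' table they did overlap.

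Axin2, Nkd1 and Rnf43 are feedback inhibitors that Wnt signalling itself induces. Axin2 is a scaffold of the complex that degrades β-catenin, and its mRNA is a widely used readout of the pathway. Of its 2 probes, the brighter one lies at chr11:108803927-108803986 of mm9. It starts at base 1971 of the transcript and is shown because the level of Axin2 rests on it alone:
Axin2 probe, 5′ to 3′: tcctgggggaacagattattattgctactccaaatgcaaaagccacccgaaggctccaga
This probe gave a log2 signal of 3.03, 3.56 and 4.31 in WT and of 3.60, 1.66, 3.35 and 2.52 in SHIVA livers. It was well above background on 1 of 3 WT arrays, that of replicate 3, and on 0 of 4 SHIVA arrays, so Axin2 did not pass the filter on dim probes. With no filter its adjusted p was 0.688 by limma. The measured means were 3.63 ± 0.64 (SD, n = 3) and 2.78 ± 0.88 (SD, n = 4), and the values overlapped. The exact two-sided permutation test over the 35 splits of the 7 livers gave p = 0.257. The other probe, at chr11:108812034-108812093, stayed between 1.32 and 1.44 on all 7 arrays and was not well above background on any. Axin2 in fasted liver was at the limit of detection of these arrays.

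Nkd1 binds Dishevelled and dampens the signal upstream of β-catenin. Its brighter probe (chr8:91116160-91116219) was almost level in WT livers, at 6.40, 6.41 and 6.36, and spread over 5.91, 6.22, 6.06 and 6.48 in SHIVA livers. SHIVA replicates 1 to 3 lay below all WT livers and SHIVA replicate 4 lay above them. The log2 difference was -0.22 ± 0.17 (SE), with an adjusted p of 0.620 by limma, and it was -0.21 without WT replicate 1, -0.32 without SHIVA replicate 4 and -0.13 without SHIVA replicate 1. Normexp gave -0.065 and the mean of both probes -0.58. A second probe (chr8:91118468-91118527), well above background on 2 WT and 2 SHIVA arrays, had a larger difference of -0.95 ± 0.41 (SE), with an adjusted p of 0.383 by limma over all probes.

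Rnf43 is a ubiquitin ligase that removes Frizzled receptors from the cell surface. Its probe (chr11:87548958-87549017) gave 6.87, 7.32 and 8.21 in WT and 7.84, 7.86, 7.71 and 7.39 in SHIVA livers. All SHIVA values lay inside the WT range, which spanned more than a log2 unit. The difference was 0.24 ± 0.30 (SE) with an adjusted p of 0.786 by limma, and it turned to -0.063 without WT replicate 1 but was 0.61 without WT replicate 3. Normexp gave 0.13.

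Lgr5 is the receptor for R-spondins that marks hepatocytes bordering the central vein and stem cells in other epithelia. Its probe (chr10:114887403-114887462) gave 3.80, 6.00 and 5.95 in WT and 5.56, 4.93, 5.75 and 5.96 in SHIVA livers. WT replicate 1 was the single liver in which Lgr5 was not well above background, and the 6 others lay between 4.93 and 6.00. The log2 difference of 0.30 ± 0.52 (SE), with an adjusted p of 0.851 by limma, turned to -0.42 without that liver and was 0.68 without WT replicate 2 and 0.65 without WT replicate 3. In the authors' table it was 0.066 and with normexp 0.031.

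Tbx3 is a T-box transcription factor that β-catenin induces in liver. Its log2 signal (chr5:120134511-120134570) was 9.04, 10.18 and 10.34 in WT and 9.98, 9.48, 9.88 and 8.87 in SHIVA livers. WT replicates 2 and 3 were above all SHIVA livers, whereas WT replicate 1 was below all but SHIVA replicate 4. The log2 difference was -0.30 ± 0.37 (SE), with an adjusted p of 0.777 by limma. Without WT replicate 1 it was -0.71, with a 95% interval of -1.46 to 0.038 and an adjusted p of 0.528. Leaving out other livers brought it close to 0, with -0.058 without WT replicate 3, -0.14 without WT replicate 2 and -0.075 without SHIVA replicate 4.

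Glul, Oat and Slc1a2 serve the handling of glutamate and glutamine in pericentral hepatocytes, and all 3 had lower means in SHIVA. Glul makes glutamine from glutamate and ammonia. Its probe lies at chr1:155756765-155756824 of mm9. The log2 signal was 11.23, 12.09 and 11.98 in WT and 11.15, 10.82, 10.97 and 10.98 in SHIVA livers. WT replicate 1 lay just above the highest SHIVA liver, and the other WT livers were well above it. The difference was -0.78 ± 0.22 (SE), which is 1.72-fold, with a 95% interval of -1.28 to -0.28. The unadjusted p was 0.00664, and 3.19% of all genes had a smaller one, so that the adjusted p by limma was 0.206. The exact two-sided permutation test gave p = 0.0286, the smallest it can give for 3 against 4 livers. Without WT replicate 1 the difference was -1.05, with a 95% interval of -1.41 to -0.69 and an adjusted p of 0.114. Over all alternatives the log2 difference of Glul lay between -1.05 and -0.62 and its adjusted p by limma or the methods' test between 0.114 and 0.482.

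Oat encodes ornithine aminotransferase, which turns ornithine into a precursor of glutamate. Log2 signals (chr7:139749726-139749785) were 13.34, 13.80 and 14.23 in WT and 13.67, 13.43 and 13.50 in SHIVA replicates 1 to 3. The spot of SHIVA replicate 4 was marked as an outlier by the scanner software and left out of the fit. WT replicate 1 was below every SHIVA liver with a value, and the other WT livers were above them. The difference was -0.26 ± 0.24 (SE) with an adjusted p of 0.713 by limma, and -0.28 with the marked spot kept. It was -0.48 without WT replicate 1 and -0.034 without WT replicate 3.

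Slc1a2 encodes a glutamate transporter that takes up glutamate into pericentral hepatocytes. Its brightest probe (chr2:102617752-102617811) gave 10.37, 10.97 and 11.26 in WT and 10.54, 9.65, 10.44 and 10.57 in SHIVA livers. SHIVA replicate 2 was the lowest of all, and WT replicate 1 again lay inside the SHIVA range. The difference was -0.57 ± 0.29 (SE) with an adjusted p of 0.448 by limma, and -0.82 without WT replicate 1, with a 95% interval of -1.49 to -0.14 and an adjusted p of 0.476. It was -0.37 without WT replicate 3 and -0.35 without SHIVA replicate 2. The other probes of Slc1a2 ran the same way. A probe well above background on all arrays gave -0.69 ± 0.29 (SE), with an adjusted p of 0.359 by limma over all probes. The last probe, well above background on 1 array and not tested, gave -0.53.

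Lect2 is a hepatocyte-secreted protein that β-catenin controls in liver. Its probe (chr13:56643829-56643888) gave 12.55, 12.34 and 12.90 in WT and 12.16, 12.33, 11.89 and 12.65 in SHIVA livers. The values overlapped, and SHIVA replicate 4 stood among the WT livers. The difference was -0.34 ± 0.22 (SE), with an adjusted p of 0.555 by limma, and was -0.36 without WT replicate 1. Leaving out single livers gave -0.19 (without WT replicate 3) to -0.47 (without SHIVA replicate 4).

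**Figure D2:**
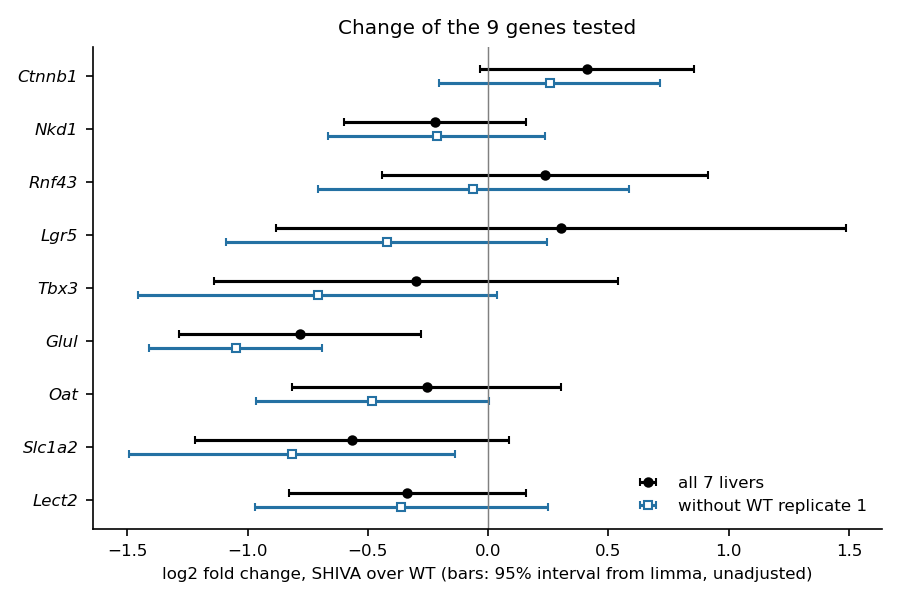
Log2 fold change, SHIVA over WT (x axis), of the 9 genes tested, in all 7 livers (black circles) and without WT replicate 1 (open blue squares), with 95% intervals from limma that are not adjusted for the number of genes. The interval of Glul lies below 0 in both, that of Slc1a2 only without WT replicate 1, and Rnf43 and Lgr5 change sign. WT replicate 1 was singled out on these same genes, so the intervals without it are a description only.

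The letters ATCAAAG, or CTTTGAT on the other strand, are a core form of the site that TCF and LEF factors recognise. They were looked for in the 250 bases before the transcription start in the RefSeq promoters of GRCm38.p6. Of the 10 genes, 8 had an entry (10 promoters), and Lgr5 and Tbx3 had none. Slc1a2 and Lect2 each held 1 match, and 3.21% of all 32851 promoters of this length held at least 1. Both windows are shown, 5′ to 3′ in the direction of the gene, as the only matches among these genes, with the match in capitals:
Slc1a2, chr2:102706188-102706437, plus strand: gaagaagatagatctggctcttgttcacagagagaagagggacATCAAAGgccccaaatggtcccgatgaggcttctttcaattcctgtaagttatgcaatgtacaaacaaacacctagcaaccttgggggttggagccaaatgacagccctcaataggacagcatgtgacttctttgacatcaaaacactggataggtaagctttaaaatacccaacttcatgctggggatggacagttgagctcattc
Lect2, chr13:56548539-56548788, minus strand: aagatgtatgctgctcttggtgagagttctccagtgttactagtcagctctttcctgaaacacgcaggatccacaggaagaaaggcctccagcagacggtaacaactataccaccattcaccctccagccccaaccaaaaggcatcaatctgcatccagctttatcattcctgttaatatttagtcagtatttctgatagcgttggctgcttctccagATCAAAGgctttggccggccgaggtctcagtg
In Slc1a2 the match began 207 bases before the start, and in Lect2 32 bases before it. Both genes had a negative log2 difference that did not pass the test, as had Glul, whose window held no match. A match of letters is a description of the sequence and not a site shown to be bound.

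The other genes of the pathway were read from a list of 92 ligands, receptors, inhibitors, cytoplasmic and nuclear components and targets. Of these 61 were tested, and 42 were lower (51.2% of all genes) and 19 higher in SHIVA. The median log2 fold change was -0.12, against -0.0074 over all genes tested. By limma 3 were called lower and 0 higher, where 0.19% of all genes were called lower. The 3 were Sp5, Wnt9b and Sfrp5. Among the 61, 10 were lower in SHIVA without overlap (6.02% of all genes), and 2 were higher without overlap (6.14%).

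Sp5 is a transcription factor and a direct target of β-catenin in many tissues. Its log2 signal was 6.05, 6.49 and 6.92 in WT and 4.86, 5.29, 4.96 and 4.79 in SHIVA livers (chr2:70315688-70315747 of mm9). All livers were well above background and the genotypes were far apart. Sp5 fell by 1.51 ± 0.23 (SE) on the log2 scale, which is 2.85-fold, with an adjusted p of 0.042 by limma. The call was kept in 2 of 7 fits that left out 1 liver, those without WT replicate 3 or SHIVA replicate 2. Without WT replicate 1 the difference was -1.73 with an adjusted p of 0.102. Other settings gave -1.51 to -0.77, and normexp (adjusted p = 0.0551), no filter on dim probes (0.131), the replicate block and the methods' test ended the call. In the fit over all probes its probe had an adjusted p of 0.0505 by limma and was not called either.

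Wnt9b is a ligand made by endothelium of the central vein. Its log2 signals (chr11:103588882-103588941) were 5.02, 4.73 and 5.04 in WT and 3.81, 4.09, 3.81 and 3.91 in SHIVA livers. The groups were apart, at levels close to background, and 3 of 4 SHIVA arrays were well above it. Wnt9b fell by 1.03 ± 0.15 (SE), with an adjusted p of 0.0389 by limma. Its call held without WT replicate 3 or SHIVA replicate 2 and was lost without any of the other 5 livers, with an adjusted p of 0.167 without WT replicate 1. The size depended on the background: it was -0.37 in the authors' table (adjusted p = 0.189) and -0.20 with normexp (adjusted p = 0.299). With no filter on dim probes the adjusted p was 0.0873.

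Sfrp5 is a secreted protein that binds Wnt ligands. Its log2 signal (chr19:42272509-42272568) was 5.28, 5.24 and 5.45 in WT and 3.27, 3.58, 3.31 and 4.09 in SHIVA livers, of which 2 were well above background. Every WT liver was more than a log2 unit above every SHIVA liver. Sfrp5 fell by 1.76 ± 0.21 (SE), with an adjusted p of 0.0224 by limma. It reached the 3 arrays needed for the test through the WT group, and with 2 of 4 SHIVA arrays not well above background its size is not well defined. It stayed called without WT replicate 3, SHIVA replicate 2 or SHIVA replicate 4, and had an adjusted p of 0.110 without WT replicate 1. In the authors' table the difference was -0.77 (adjusted p = 0.0153), with normexp -0.48 (adjusted p = 0.0577), and with no filter the adjusted p was 0.098.

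**Figure D3:**
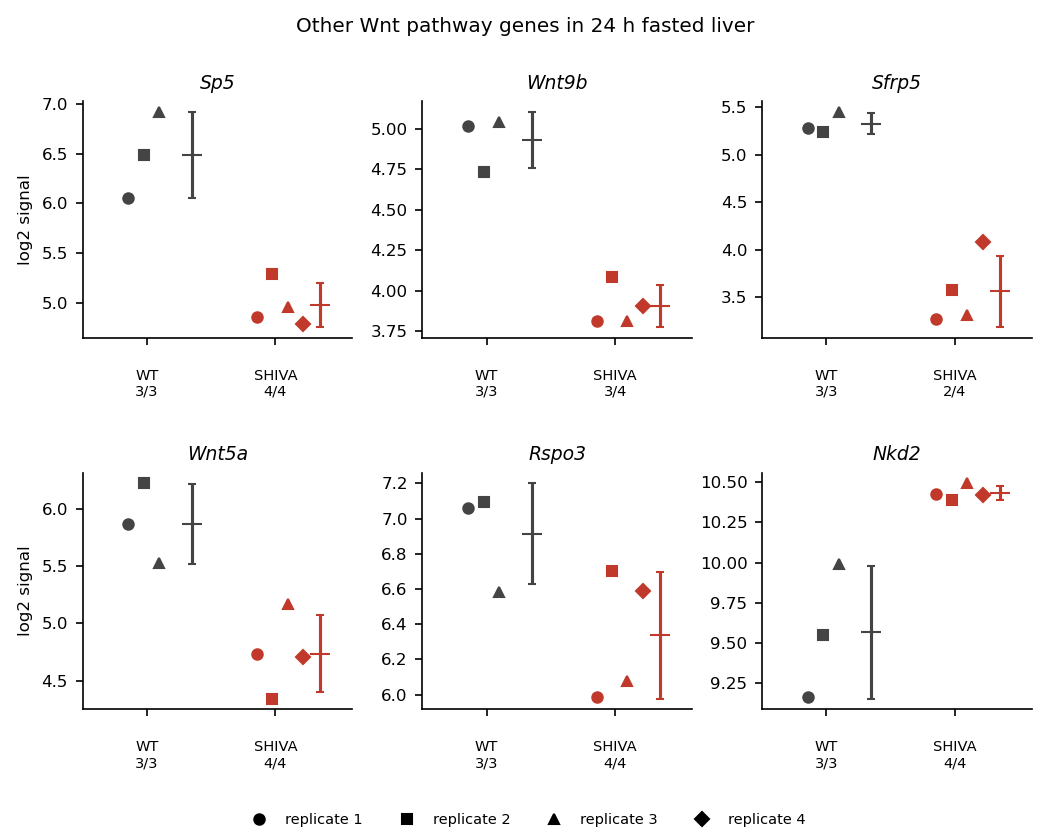
Log2 signal (y axis, own range per panel) of 6 other genes of the Wnt pathway in 3 WT (grey) and 4 SHIVA (red) livers, with mean ± SD beside the livers and the number of arrays well above background under the names. Sp5, Wnt9b and Sfrp5 passed the test, whereas Wnt5a, Rspo3 and Nkd2 did not, and of these Rspo3 overlapped.

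Among the ligands 9 of 23 were tested and 8 were lower (51.2% of all genes), with a median log2 fold change of -0.57 (-0.0074 over all genes). Wnt5a, a ligand of the β-catenin-independent branch, differed by -1.14 ± 0.24 (SE) with an adjusted p of 0.111, and Wnt5b by -0.83 ± 0.22 (SE) with an adjusted p of 0.181, both by limma and without overlap. Wnt5a was -0.74 in the authors' table and -0.55 with normexp. Rspo3, the R-spondin of the central vein, gave 7.06, 7.10 and 6.58 in WT and 5.98, 6.70, 6.08 and 6.59 in SHIVA livers. Its difference of -0.57 ± 0.23 (SE) had an adjusted p of 0.331, and the livers overlapped. With normexp it was -0.34. Wnt2, the other ligand of these endothelial cells, was not well above background on any array.

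Markers of the central vein endothelium, which include the ligands Wnt9b and Rspo3 just given, were read as a list. Of 6, 5 were tested (Wnt9b, Rspo3, Kit, Cdh13 and Thbd, with Wnt2 not well above background). All 5 had a negative difference, as had 51.2% of all genes. Of these 1, Wnt9b, passed the test (0.19% of all genes were called lower). Kit was at -0.63 (adjusted p = 0.145), Cdh13 at -0.51 (0.647) and Thbd at -0.22 (0.745). The mean log2 signal of the 5 was 6.32 to 6.44 in WT and 5.62 to 5.93 in SHIVA livers. This mean includes Wnt9b, whose difference was only -0.20 with normexp. Of the 7 general endothelial markers 4 were higher and 3 lower in SHIVA, and 0 were called. They ran from -0.29 for Kdr (adjusted p = 0.554 by limma) to 0.79 for Lyve1 (0.289). The mean log2 signal of these 7 was 9.08 to 9.26 in WT and 9.19 to 9.31 in SHIVA. Of 6 cholangiocyte markers 4 were tested and 3 had a negative difference, with a mean log2 signal of 5.751 to 7.001 in WT and 5.414 to 6.304 in SHIVA. All 6 macrophage markers had a positive difference, with a mean log2 signal of 9.67 to 10.91 in WT and 10.33 to 11.19 in SHIVA. None of the cholangiocyte and macrophage markers, nor of those tested of stellate cells, other leukocytes and pancreas, was called, and of the adipocyte markers 0 of 3 were tested. The part of any of these cells in the levels of Glul, Sfrp5 or Mmp7 was not tested.

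Of the receptors 10 of 14 were tested and 0 were called by limma (0.375% of all genes). At an unadjusted p under 0.05 there were 0 (13.3% of all genes). The log2 difference was 0.26 for Lgr4, -0.11 for Fzd4, -0.23 for Lrp5 and -0.12 for Lrp6, with adjusted p of 0.555 to 0.868. Leaving out 1 liver gave 0.18 to 0.45 for Lgr4 and -0.29 to -0.009 for Fzd4. The sign of Lrp6 turned without WT replicate 2 (0.011) and without SHIVA replicate 2 (0.037). All 5 tested inhibitors at the cell surface were lower (51.2% of all genes), and 1, Sfrp5, was called (0.19% of all genes were called lower). Notum, an enzyme that inactivates Wnt ligands, differed by -0.27 with an adjusted p of 0.626, and Znrf3, the partner of Rnf43, by -0.12 with an adjusted p of 0.917. Both were picked after their values were seen, as feedback inhibitors like Axin2 and Rnf43.

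All 17 cytoplasmic components were tested and 0 were called (0.375% of all genes), with 1 at an unadjusted p under 0.05 (13.3%). That one was Nkd2, the relative of Nkd1, which ran the other way. Nkd2 gave 9.16, 9.54 and 9.99 in WT and 10.43, 10.39, 10.49 and 10.42 in SHIVA livers, a difference of 0.87 ± 0.20 (SE) with an adjusted p of 0.132 by limma. A second probe was not well above background on any array, and the mean of both gave 0.46. Csnk1e, a kinase of the pathway, differed by -0.59 with an adjusted p of 0.451, and by -0.29 without SHIVA replicate 2 or with the mean of its probes. Among 13 nuclear factors tested, 0 were called and 2 had an unadjusted p under 0.05 (13.3% of all genes), both lower without overlap (6.02%). Tcf7l2, a TCF factor, was at -0.44 with an adjusted p of 0.250 by limma. Tle3, a co-repressor, was at -0.44 with an adjusted p of 0.373. Of 7 other targets tested 1, Sp5, was called (0.19% of all genes were called lower). Mmp7, a protease, differed by -2.15 ± 0.49 (SE) with an adjusted p of 0.132 by limma, the lowest difference of the list over all 7 livers. It was -1.69 without WT replicate 1, where Sfrp5 and Sp5 were lower, -1.17 in the authors' table and -0.83 with normexp.

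**Figure D4:**
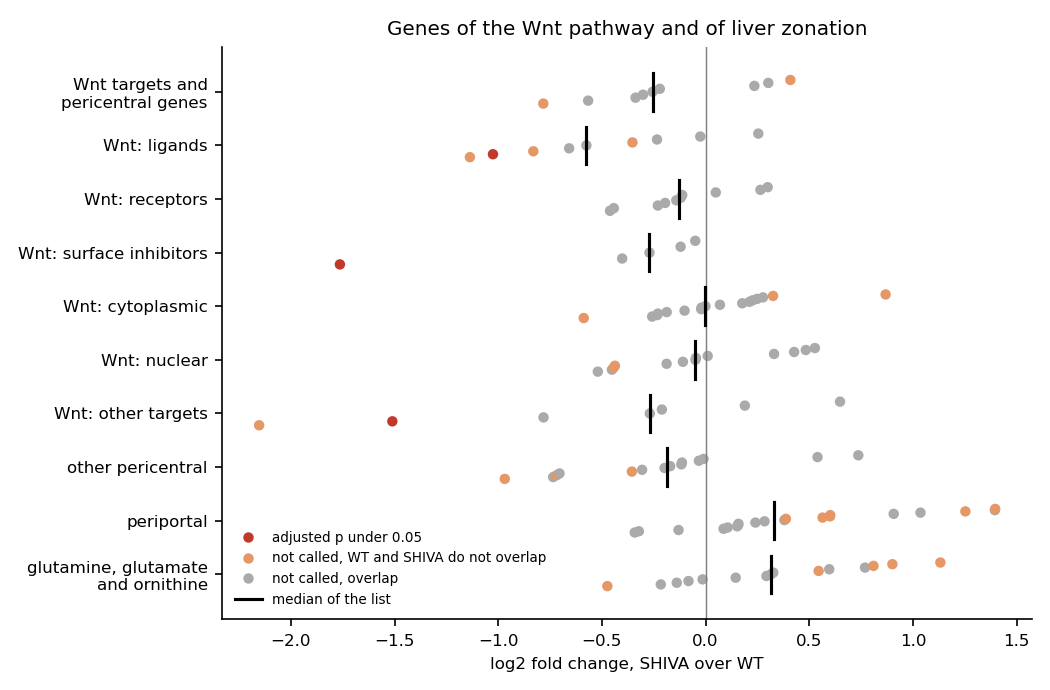
Log2 fold change, SHIVA over WT (x axis), of each tested gene (dot) in the lists named at the left, with the median of each list as a black line. Red dots are called (Sfrp5, Wnt9b and Sp5), orange ones are not called but do not overlap, and grey ones overlap. The medians lie below 0 for the ligands (-0.57) and above 0 for the periportal genes (0.33).

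Further genes of pericentral hepatocytes were read beside Glul. Of 16 listed, 14 were tested, and 12 were lower (51.2% of all genes) and 2 higher in SHIVA. By limma 0 were called, while 6 had an unadjusted p under 0.05 (13.3% of all genes). The median log2 fold change of the 14 was -0.18 (-0.0074 over all genes), with -0.34 without WT replicate 1 and -0.074 without WT replicate 3. Lower without overlap were 3 (6.02% of all genes), namely Nr1i3, the xenobiotic receptor CAR (-0.97 ± 0.16 (SE), adjusted p = 0.055 by limma), Cyp2c37 (-0.72, adjusted p = 0.225) and Cyp2e1 (-0.36, adjusted p = 0.279). Nr1i3 was below 0.05 in 5 of 17 alternatives. At the other end was Cyp7a1, the rate-limiting enzyme of bile acid synthesis, at 0.74 with an adjusted p of 0.273. WT replicate 1 was the lowest WT liver in 12 of the 14 genes.

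The periportal genes lay on the other side. All 20 were tested, and 17 were higher and 3 lower in SHIVA, where 51.2% of all genes were lower. By limma 0 were called and 9 had an unadjusted p under 0.05 (13.3% of all genes). The median log2 fold change of the 20 was 0.33 (-0.0074 over all genes), or 0.24 without WT replicate 1, where 6 of the 20 were lower. There were 6 that were higher without overlap (6.14% of all genes). Furthest of these were Cdh1, the cadherin of periportal hepatocytes (1.40, adjusted p = 0.193), and Etnppl (1.25, adjusted p = 0.114), while Hal and Sds of histidine and serine breakdown were at 0.60 and 0.56 (adjusted p = 0.254 and 0.238). Gls2, the glutaminase that opposes Glul, had a log2 signal of 14.30, 14.35 and 14.60 in WT and 14.94 to 15.08 in SHIVA livers, with no overlap. Its difference was 0.60 ± 0.14 (SE), with an adjusted p of 0.140 by limma. Fbp1 of gluconeogenesis was at 0.39 with an adjusted p of 0.344, and Asl of the urea cycle was lowest at -0.34 with an adjusted p of 0.474. Other genes of urea synthesis differed little, with Cps1 at 0.15, Ass1 at 0.087 and Arg1 at -0.13. Pck1 and G6pc of gluconeogenesis were at 0.28 and 0.16. All of these overlapped, with adjusted p of 0.555 to 0.853 by limma. WT replicate 1 was the lowest WT liver in 14 of these 20 genes too.

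**Figure D5:**
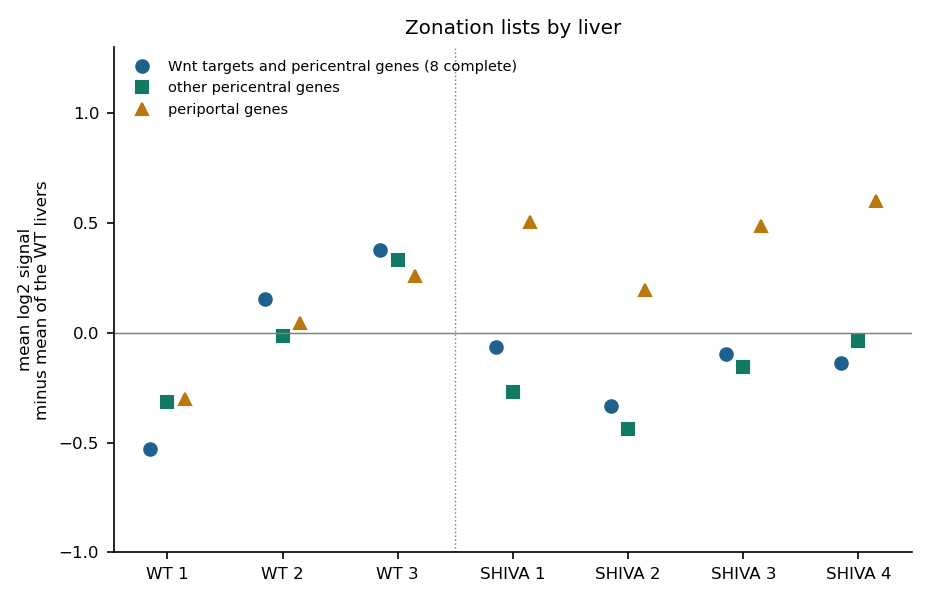
Mean log2 signal of 3 lists in each liver (x axis), given as the difference from the mean of the 3 WT livers (y axis): the 8 Wnt targets and pericentral genes with a value in every liver (circles), 14 further pericentral genes (squares) and 20 periportal genes (triangles). All 3 lists are lowest among WT in replicate 1, and in each SHIVA liver the periportal mean lies above both others.

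Enzymes and transporters of glutamine, glutamate and ornithine were read beside Glul, Oat and Slc1a2. Of 18 listed, 15 were tested, and 10 were higher and 5 lower, where 51.2% of all genes were lower. By limma 0 were called and 6 had an unadjusted p under 0.05 (13.3% of all genes). The median of the 15 was 0.32 (-0.0074 over all genes) and came down to 0.062 without WT replicate 1. Slc38a2, a transporter that takes up glutamine, had a log2 signal of 10.56, 10.87 and 11.43 in WT and 12.10, 11.93, 12.08 and 12.21 in SHIVA livers. The groups did not overlap, and its difference was 1.13 ± 0.21 (SE) with an adjusted p of 0.078. Aldh18a1 of proline synthesis (0.90), Slc1a4 (0.81) and Slc38a4 (0.55) were also higher without overlap, with adjusted p of 0.179 to 0.235. In this list 4 genes were higher without overlap (6.14% of all genes) and 1 was lower (6.02%). Without WT replicate 1, Slc38a2 was at 0.93, Aldh18a1 at 0.58, Slc1a4 at 0.70 and Slc38a4 at 0.39. Aldh18a1, well above background on 2 of 3 WT arrays, was 0.30 in the authors' table and 0.17 with normexp. Prodh, which breaks down proline, was lower without overlap at -0.47 with an adjusted p of 0.370.

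The genes whose log2 signal ran most like that of Glul over the 7 livers were Sgsm3, Tmem102 and Mief1, with a Pearson r of 0.983, 0.979 and 0.976. All points share the same arrays, and the 3 were taken as the highest of all genes tested. None is a gene of the lists above. Axin2 was not compared in this way, since it was well above background on only 1 array.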

How the data were processed

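The authors deposited scanner intensities from Agilent Feature Extraction 10.5.1.1 (processed, mean and background signals per spot, not normalised between arrays) and a table of log2 values, quantile normalised according to their methods. Probe positions are mm9 from the files, exon annotation of that build was not used here, and gene names were updated by accession with RefSeq of GRCm38.p6 (26413 probes).

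Here log2 processed intensities were quantile normalised over the 7 arrays with limma 3.58.1 in R 4.3.3. Spots marked as outliers (120 to 163 per array) were left out, and the brightest probe stood for its gene. Genes well above background on at least 3 arrays entered limma's moderated linear model, and were called when p after Benjamini-Hochberg adjustment over 20002 genes was under 0.05. Single genes were also tested by exact permutation. Between 45.8% and 50.1% of spots were well above background, 0 were saturated, and the number of arrays limits precision. On simulated data with 20002 genes, limma called 39.5% of 200 genes changed by a log2 value of 1 and 86.5% of those changed by 2.

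The genes and lists were chosen with earlier results of these data known, so lists have counts and medians but no test. Named are the 10 genes, fixed ligands and receptors, Sox17, the 3 genes most like Glul, and in each list the called genes, up to 6 others without overlap and both extremes. Cps1, Ass1, Arg1, Pck1, G6pc and Tcf7l2 were added after their values were seen. Alternatives were 75th percentile scaling, the mean signal, normexp (offset 50), the authors' table, other filters, the mean of probes, the replicate number as a block, each liver left out, the methods' t-test and, chosen after seeing the data, keeping marked spots. The methods' t-test is the unpaired t-test that the paper names for its statistics in general, and not for the arrays.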

Additional observations from a re-analysis of the deposited data

Results flagged for a closer look

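Dixon's test was run on 36 of the named genes, those with a value and a signal well above background in each SHIVA liver. Wnt9b, Sfrp5, Mmp7, Axin2, Wnt2 and Oat were therefore not among them. In 5 of these, 1 SHIVA liver lay far from the other 3, where chance gives about 1.8. In SHIVA replicate 2, Slc1a2 stood at a log2 signal of 9.65, against 10.44 to 10.57 in the others. In the same liver Csnk1e was at 6.70, against 7.83 to 7.99, and Lgr4 at 5.79, against 6.47 to 6.60. Cyp2c37 was at 13.43 in SHIVA replicate 4, against 13.10 to 13.15. Slc38a4 was at 12.18 in SHIVA replicate 3, against 12.44 to 12.49. The group of 3 WT livers was too small for this test.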

How the results depend on the processing

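The count of 0 called among the 10 genes and among their single probes was the same under every alternative run. At an unadjusted p under 0.05, Glul passed in each of them, with Ctnnb1 added by the mean signal, normexp and the authors' table, Nkd1 by the mean of probes, Slc1a2 without WT replicate 1 and Rnf43 without WT replicate 3. The number of genes called on the arrays, 75, was 141 with the mean signal, 141 in the authors' table, 13 with no filter on dim probes, 32 with the replicate number as a block, and 3 to 416 when 1 liver was left out, lowest without WT replicate 1 and highest without WT replicate 3 (8 without WT replicate 2, 7 without SHIVA replicate 1 and 13 without SHIVA replicate 3). The methods' t-test, which the paper does not name for the arrays, called 0 after adjustment and 2299 genes before it, of which 1 of the 10 genes. Of the 10 genes, those without overlap numbered 1 with the mean signal, with normexp and in the authors' table, where Ctnnb1 overlapped. They numbered 2 to 5 when 1 liver was left out, with 5 without WT replicate 1 (21.3% of all genes). There were 4 without SHIVA replicate 4, where Nkd1 and Lect2 joined. The share over all genes was 12.2% with all livers and was not counted for the other livers left out. The median of the glutamine, glutamate and ornithine list was 0.17 with normexp and 0.062 to 0.369 when 1 liver was left out. That of the Wnt pathway list was then -0.211 to -0.048 and that of the pericentral list -0.338 to -0.074. When 1 liver was left out, Tbx3 ranged from -0.709 to -0.058, Oat from -0.482 to -0.034, Rnf43 from -0.063 to 0.609, Lgr5 from -0.423 to 0.678 and Lrp6 from -0.205 to 0.037. The sign turned for Rnf43 and Lgr5 without WT replicate 1, and for Lrp6 without WT replicate 2 (0.011) and SHIVA replicate 2 (0.037). The causes were not tested. Same-numbered livers correlated in their deviations from the group means at -0.049, 0.013 and 0.236, so the numbers were not taken as pairs. In the block SHIVA replicate 4 has no partner and adds nothing, and Sp5 (-1.45, adjusted p = 0.0912 by limma) and Wnt9b (-1.03, adjusted p = 0.137) lost their calls. Of genes not called, Nr1i3, Slc38a2, Etnppl, Cdh1, Nkd2 and Wnt5a were called under at least 1 alternative. Axin2, not well above background on 6 of 7 arrays, has no level that these arrays can compare.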
